A study of Mus musculus with 12 samples.

Results

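The cornified envelope genes of the epidermal differentiation complex were followed in oral tumours of mice. Their members were every gene whose symbol starts with Sprr (small proline-rich proteins) or Lce (late cornified envelope proteins), together with Ivl, Lor and the S100-fused genes Flg, Flg2, Hrnr, Rptn, Crnn, Tchh and Tchhl1. A member counted as measured where the platform's table gave it at least 1 probeset of its own, and its value on an array was the median log2 intensity of those probesets. Of 47 such symbols in RefSeq, 39 were measured, among 23102 genes in all: 12 Sprr genes, 18 Lce genes, 7 S100-fused genes, Ivl and Lor. Sprr2a1, Sprr2a2, Sprr2a3, Sprr2i, Lce1c and Lce1d had only probesets shared between symbols, and Sprr2c-ps and Lce1j are not analysed here. Sprr4, Lce1g, Lce3a, Lce3c, Lce3d and Lce3f rested on 1 probeset each, 17 members on 2, and 16 on 3 to 5.

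The arrays were Affymetrix Mouse Gene ST 2.0 chips, 1 for each of 12 samples of oral tumour from C57BL/6 × FVB F1 mice, and both groups had received tamoxifen by intraperitoneal injection. Tumours labelled KR (n = 6) expressed RAS. Tumours labelled KHR (n = 6) carried RAS and iHPV, and are described as expressing HPV E6, the papillomavirus oncoprotein known for driving p53 to degradation. The labels do not explain K, H and R or the i of iHPV, nor state what drives RAS and E6, the age and sex of the mice, or whether each tumour came from its own animal. Every p-value therefore reflects spread among these samples only. The comparison asks how RAS tumours with iHPV differ from RAS tumours without it.

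Cells of a stratified epithelium leave the basal layer, flatten and die, and in dying they replace the plasma membrane by a shell of proteins cross-linked by transglutaminases. Involucrin is laid down early as the scaffold of this cornified envelope. Small proline-rich proteins bridge it, loricrin and the late cornified envelope proteins reinforce it, and the filaggrin-like S100-fused proteins bind the keratin filaments inside. Oral mucosa, tongue papillae, oesophagus and skin use different members in different amounts. The genes lie side by side, and in the assembly GRCm38.p6 the members spanned 1.39 Mb of chromosome 3, from Lor at 92080271 to Tchhl1 at 93471980.

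Markers of squamous epithelium were read on every array: the basal keratins Krt5 and Krt14 stood at 13.19 ± 0.12 and 12.98 ± 0.06 in KR tumours and at 13.17 ± 0.14 and 13.08 ± 0.17 in KHR tumours (log2 intensity, SD, n = 6 each). None of the 9 basal keratinocyte markers passed the test (limma), and their mean ranged from 10.5 to 10.7 in KR and from 10.6 to 10.9 in KHR tumours. Of the 9, 4 were higher and 5 lower in KHR tumours. The largest differences were in Epcam, at 0.88 ± 0.24 (SE; adjusted p = 0.0670 in limma), and Krt15, at 0.52 ± 0.34. Array medians over all probesets lay between 5.62 and 5.75. In bulk tumour RNA, a change in the share of cornifying cells and a change in RNA per cell cannot be told apart.

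Of the 39 members, 5 differed between the groups, and they did not move together. Sprr4, Ivl and Tchh rose in KHR tumours, and Sprr3 and Lor fell (limma over all genes, adjusted p under 0.05). That is 12.8% of the members, beside 3.74% of all genes tested. In each direction it is 7.69% of the members higher, beside 2.71% of all genes, and 5.13% lower, beside 1.03%. The median difference over all members was -0.01 (KHR minus KR, log2), against 0.00450 over all genes, with 18 members higher (51% of all genes were) and 21 lower. Of the 5 calls, Sprr4, Ivl and Tchh were 2-fold or more, beside 0.779% of all genes. By family, 2 of 12 Sprr genes passed, 0 of 18 Lce genes, 1 of 7 S100-fused genes, and both Ivl and Lor. Without regard to multiple tests, 13 of the 39 had an unadjusted p under 0.05, beside 15.9% of all genes. These were 9 higher, beside 9.64%, and 4 lower, beside 6.21%. The exact rank permutation test called 0 genes over the array, and its adjusted p was 0.108 for each of the 5. With 6 arrays in each group it can give no p below 0.00216, so its 0 calls say nothing particular about the members. No member separated the groups: for none did all 6 KHR arrays lie above or below all 6 KR arrays, beside 2.67% of all genes that did.

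**Figure D1:**
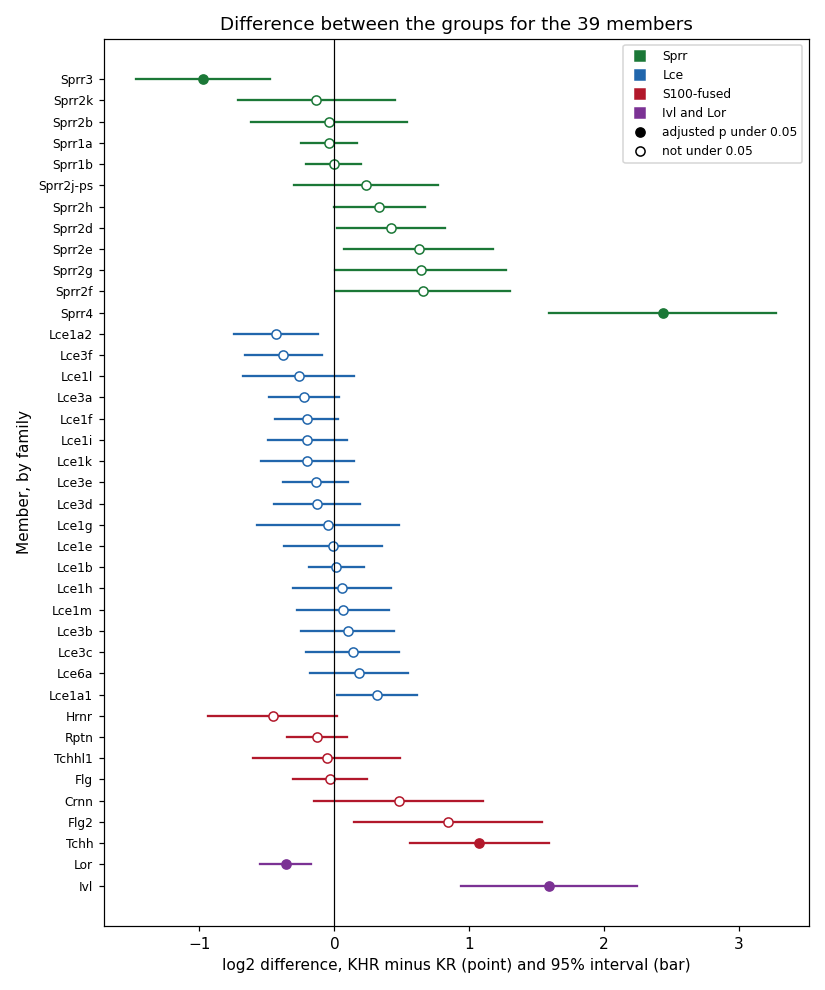
Log2 difference between KHR and KR tumours (x axis) for the 39 members, grouped by family, as a point with its 95% interval. Filled points mark Sprr3, Sprr4, Tchh, Lor and Ivl, with adjusted p under 0.05; the Lce points all lie between -0.43 and 0.32.

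Ivl encodes involucrin, the early scaffold of the envelope. Ivl read 7.69, 8.33, 9.15, 7.70, 7.23 and 7.26 on arrays KR 1 to KR 6 and 9.31, 9.30, 8.84, 10.05, 9.81 and 9.60 on arrays KHR 1 to KHR 6 (log2 intensity). The KHR tumours were high throughout, and the groups overlapped through KR 3 alone, which lay above KHR 3. The means were 7.89 ± 0.73 for KR and 9.49 ± 0.43 for KHR (SD, n = 6 each), a rise of 1.59 ± 0.30 (log2, SE; adjusted p = 0.00960 in limma), or 3.01-fold. All 3 Ivl probesets were higher in KHR tumours, by 1.35 to 1.92, and 2 of them passed over all probesets, of which 0.883% did. The call held on leaving out any of the 12 arrays (adjusted p from 0.00140 to 0.0262), and was lost with the basal keratinocyte mean as a covariate (1.58, adjusted p = 0.0765).

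Lor encodes loricrin, the glycine-rich main protein of the mature envelope of skin. Lor read 13.50, 13.29, 13.48, 13.42, 13.45 and 13.52 on arrays KR 1 to KR 6 and 12.96, 13.07, 13.07, 13.14, 12.90 and 13.35 on arrays KHR 1 to KHR 6 (log2 intensity). KHR tumours were lower, though KHR 6 lay just above KR 2. The mean fell from 13.44 ± 0.08 to 13.08 ± 0.16 (SD, n = 6 each), a difference of -0.36 ± 0.09 (SE; adjusted p = 0.0373 in limma), or 1.29-fold. The 3 Lor probesets were all lower, by 0.26 to 0.83 in size, and none passed by itself. The call was near the threshold: it held on omitting KR 2 (adjusted p = 0.0442) or KHR 6 (0.0188), and each of the other 10 omissions ended it, with an adjusted p of up to 0.0809. With array weights it was 0.0545.

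The start regions of Ivl and Lor, which moved in opposite directions, are shown here beside that of Sprr3 and those of Sprr2d and Sprr2e, a pair of near copies. Each is the 250 bases before the RefSeq start (GRCm38.p6), searched on both strands. Capitals mark 3 motifs. The first is TGANTCA, with any base at N. It takes in the site to which dimers of the AP-1 family of transcription factors bind, and is looser than that site. The second, TATAAA, is the box on which the transcription machinery assembles. The third is the octamer ATTTGCAT, to which POU-domain proteins bind.
Ivl, chr3:92573736-92573985, minus strand: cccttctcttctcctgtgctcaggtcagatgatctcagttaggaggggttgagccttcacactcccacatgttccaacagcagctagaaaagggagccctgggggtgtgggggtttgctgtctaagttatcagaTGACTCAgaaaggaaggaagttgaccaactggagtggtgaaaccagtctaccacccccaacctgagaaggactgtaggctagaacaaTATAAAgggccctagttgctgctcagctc
Lor, chr3:92083143-92083392, minus strand: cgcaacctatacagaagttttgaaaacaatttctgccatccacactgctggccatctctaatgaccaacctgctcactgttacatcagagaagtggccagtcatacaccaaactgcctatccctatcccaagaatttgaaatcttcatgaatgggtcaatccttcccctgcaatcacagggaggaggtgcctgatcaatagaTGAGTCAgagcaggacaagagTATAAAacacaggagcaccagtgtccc
Sprr3, chr3:92458721-92458970, minus strand: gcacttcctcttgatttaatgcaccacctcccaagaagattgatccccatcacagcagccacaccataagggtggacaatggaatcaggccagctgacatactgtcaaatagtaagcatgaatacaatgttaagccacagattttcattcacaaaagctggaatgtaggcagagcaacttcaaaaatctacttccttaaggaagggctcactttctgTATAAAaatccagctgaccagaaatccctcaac
Sprr2d, chr3:92338890-92339139, plus strand: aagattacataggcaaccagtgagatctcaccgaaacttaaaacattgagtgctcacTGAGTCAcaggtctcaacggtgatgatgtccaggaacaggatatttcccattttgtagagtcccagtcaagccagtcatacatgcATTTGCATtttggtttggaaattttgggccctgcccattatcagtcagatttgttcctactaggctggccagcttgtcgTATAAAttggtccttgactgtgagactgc
Sprr2e, chr3:92351893-92352142, plus strand: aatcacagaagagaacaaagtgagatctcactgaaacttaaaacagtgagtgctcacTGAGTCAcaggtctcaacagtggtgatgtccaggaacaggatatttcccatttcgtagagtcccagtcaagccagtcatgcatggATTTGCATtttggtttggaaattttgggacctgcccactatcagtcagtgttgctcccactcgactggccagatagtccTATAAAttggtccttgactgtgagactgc

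Ivl and Lor both held an AP-1 motif and a TATA motif, the first beginning 116 bases before the start of Ivl and 48 before that of Lor. The Sprr3 window held a TATA motif and no AP-1 motif. Sprr2d and Sprr2e were identical at 220 of 250 positions (88.0%), with the AP-1 motif, the octamer and the TATA motif each at the same place, beginning 193, 108 and 29 bases before the start. The other Sprr2 pairs with windows were far less alike when set position by position without alignment, identical at 27.6% to 63.2%. Windows were found for 36 of the 39 members; Sprr2g, Sprr2j-ps and Lce1f had none.

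The families differed in these letters. An AP-1 motif stood in 8 of 10 Sprr windows, 5 of 7 S100-fused windows, both of Ivl and Lor, and 0 of 17 Lce windows, beside 6.75% of all 32851 windows. A TATA motif stood in 9 of 10 Sprr windows and 3 of 17 Lce windows, beside 12.4% of all. The octamer stood in all 6 Sprr2 windows and in no other member window, beside 1.6% of all. The GRHL motif AACCGGTT was in none of the 36 (0.116% of all windows), and the short KLF motif GGGTG was in 16 of 36, beside 52.0% of all. The RefSeq entries of Sprr4 and Tchh open with ATG, so their windows precede a coding start, and they held neither an AP-1 nor a TATA motif. A match describes the letters and is not a shown binding site. Of the 5 members that passed, Ivl and Lor had an AP-1 motif in the window and Sprr4, Sprr3 and Tchh did not.

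Of the small proline-rich genes, Sprr4 had the largest difference among all 39 members. Its protein is a short member of the family, known for its response to ultraviolet light in skin. Sprr4 read 6.02, 6.74, 8.41, 6.06, 6.94 and 6.22 on arrays KR 1 to KR 6 and 8.06, 8.74, 9.23, 9.74, 9.70 and 9.52 on arrays KHR 1 to KHR 6 (log2 intensity). The KHR arrays were high, and KR 3 was the single KR array within their range, above KHR 1. The means were 6.73 ± 0.90 and 9.17 ± 0.66 (SD, n = 6 each), a rise of 2.43 ± 0.39 (SE; adjusted p = 0.00349 in limma), or 5.40-fold. It rests on 1 probeset, so no second probeset bears on it. The call held on leaving out any array (adjusted p from 0.000406 to 0.0110) and was lost with the basal keratinocyte mean as a covariate (1.97, adjusted p = 0.0536).

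Sprr4 and Ivl are neighbours among the members, at places 13 and 14 in the order along the chromosome, with no measured member between them. On both, KR 3 was the highest KR array, at 8.41 for Sprr4 and 9.15 for Ivl. Without KR 3 all KHR arrays lay above all KR arrays for both genes, and below them for Sprr3, which makes 3 of 39 members, beside 3.31% of all genes. The omission of KR 3 was chosen after seeing the data. KR 3 was also the KR array with the highest mean of 6 sebaceous gland markers, 7.30 against 6.24 to 6.50 on the other KR arrays and 6.78 to 7.27 on the KHR arrays. On it the sebaceous genes Awat1 and Fa2h read 7.19 and 7.81, against 4.02 to 5.60 and 4.73 to 5.71 on the other KR arrays. Scd1 and Soat1 were also highest there among the KR arrays. Mgst1 and Awat2 were not, at 5.57 and 4.39, against 5.68 to 6.63 and 4.36 to 4.74 on the others. KR 3 also had the highest KR mean of the fibroblast and salivary gland markers. The same held for the cross-linking, filaggrin and lipid lists described below, so the sebaceous markers were not alone in this. The part of these markers in the Sprr4 and Ivl differences was not tested.

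Sprr3 encodes the small proline-rich protein of internal squamous epithelia such as oral mucosa and oesophagus. Sprr3 read 12.20, 12.05, 11.73, 12.38, 12.21 and 12.17 on arrays KR 1 to KR 6 and 11.02, 11.03, 11.97, 11.31, 10.14 and 11.44 on arrays KHR 1 to KHR 6 (log2 intensity). It was low in the KHR tumours except KHR 3, which lay above KR 3, and lowest in KHR 5. The mean changed from 12.12 ± 0.22 to 11.15 ± 0.60 (SD, n = 6 each), a difference of -0.97 ± 0.23 (SE; adjusted p = 0.0336 in limma), or 1.96-fold. Its 3 probesets were all lower, by 0.42 to 0.97 in size, none of them past the threshold by itself. The call held on leaving out KR 3, KHR 3, KHR 5 or KHR 6 (adjusted p from 0.0106) and was lost on leaving out any of the others (up to 0.0662). KHR 5 was also the array with the highest mean of 12 skeletal muscle markers, at 8.08. That mean was 5.56 to 6.88 in KR tumours and, on the other KHR arrays, 5.57 (KHR 1) to 7.29 (KHR 4). With the muscle mean as a covariate the Sprr3 difference was -0.83 (adjusted p = 0.0963 in limma). Without KHR 5 it was -0.77 (adjusted p = 0.0283).

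**Figure D2:**
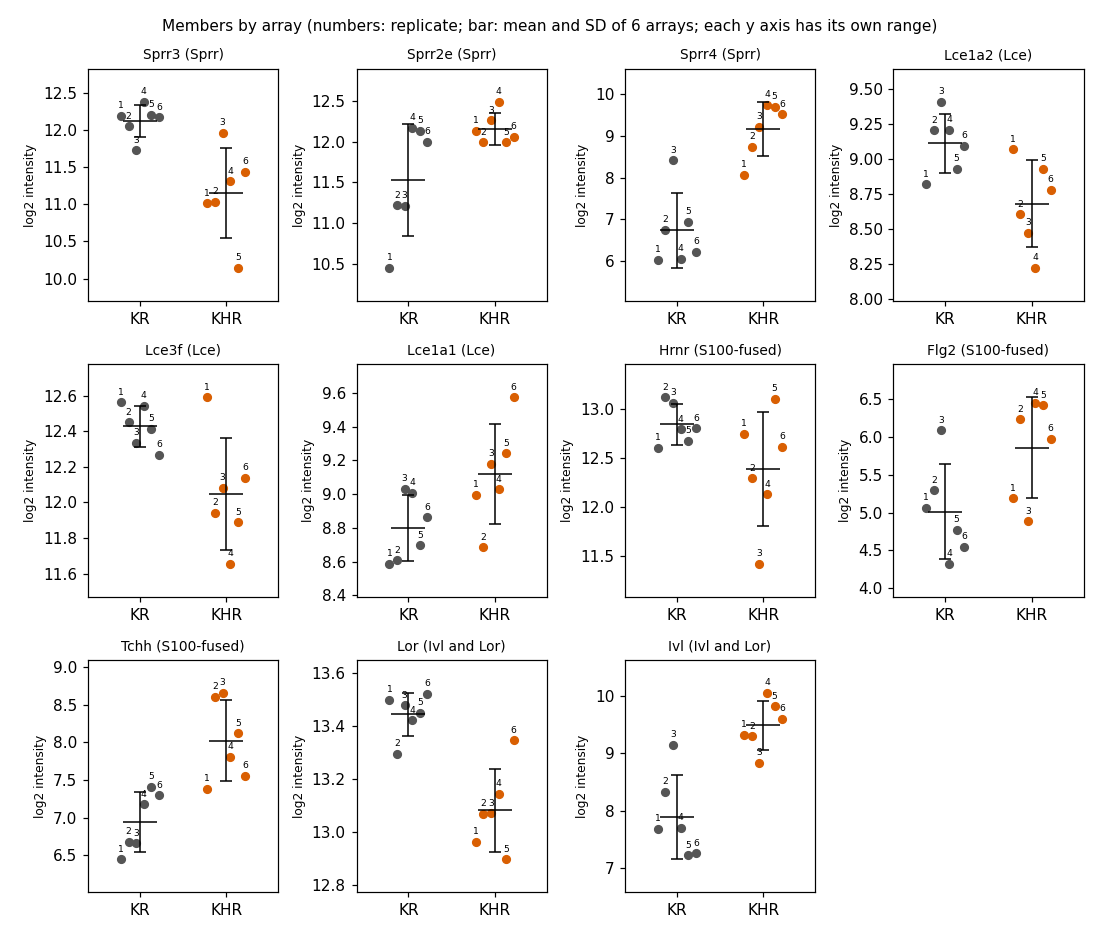
Log2 intensity (y axis, own range in each panel) on every array for the 11 members described in full, KR in grey and KHR in orange, with replicate numbers and the mean and SD of 6 arrays. In Ivl and Sprr4 the KHR points stand above the KR points except for KR 3; in the 3 Lce panels the groups mix.

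The Sprr1 genes, whose proteins are induced in stressed and regenerating epithelium, were among the least changed members. Sprr1a differed by -0.04 ± 0.10 and Sprr1b by 0.00 ± 0.10 (SE, adjusted p = 0.910 and 0.989 in limma). The 95% intervals ran from -0.25 to 0.17 and from -0.21 to 0.20. Both genes stood high on the scale, with KR means of 13.38 and 12.81.

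The Sprr2 genes form a row of copies with closely related transcripts, so signal on one member's probesets may come from another. None of the 8 measured passed in limma, and 4 had an unadjusted p under 0.05, all higher in KHR tumours (9.64% of all genes were). The exact rank test called 0 of all genes, so it adds nothing on the Sprr2 genes. Their median difference was 0.38, with 6 higher and 2 lower, and the values ran from -0.13 in Sprr2k to 0.66 in Sprr2f. Sprr2f passed when probesets were averaged by the mean or by median polish. Sprr2e read 10.45, 11.22, 11.21, 12.17, 12.13 and 11.997 on arrays KR 1 to KR 6 and 12.14, 11.99, 12.26, 12.49, 11.99 and 12.06 on arrays KHR 1 to KHR 6 (log2 intensity). The KHR tumours were close together, and KR 4, KR 5 and KR 6 lay within their range while KR 1, KR 2 and KR 3 lay below it. Its difference was 0.62 ± 0.26 (SE; adjusted p = 0.237 in limma).

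That division of the KR tumours was shared by the Sprr2 row. KR 1, KR 2 and KR 3 were the lowest of the KR arrays for 8 of 8 Sprr2 members, an order found for 6.93% of all genes, and the pattern was noticed after the values were seen. Sprr2f, for example, read 9.62, 10.58 and 10.41 on these 3 arrays and 11.67, 11.49 and 11.15 on KR 4, KR 5 and KR 6. The SD was larger in KR than in KHR tumours for 7 of 8 Sprr2 members (47.6% of all genes), with a median SD of 0.65 in KR and 0.32 in KHR tumours. The 8 values on an array come from 1 RNA sample and from related copies, so they are not independent of one another. Among the other members, the order held for Tchh and for 3 of 18 Lce genes, Lce3a, Lce3b and Lce3e.

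Outside the members the same order was found for some genes, as it was for 6.93% of all genes. It held for 3 of 6 immune markers, S100a8, S100a9 and Cd3e, of which S100a8 and S100a9, abundant in neutrophils, are also made by keratinocytes. S100a9 read 7.86, 8.02 and 7.70 on KR 1, KR 2 and KR 3 and 9.77, 10.18 and 9.76 on KR 4, KR 5 and KR 6 (log2 intensity). S100a8 read 9.91, 10.74 and 10.67 on the first of these sets and 12.22, 12.29 and 12.14 on the second. The mean of the immune markers, which includes S100a8 and S100a9, was 6.84, 7.05 and 7.26 on KR 1 to KR 3. On KR 4 to KR 6 it was 7.72, 7.90 and 7.74. The order did not hold for Cd68, Adgre1 and Ptprc. Cd68 read 8.58, 7.78 and 8.92 on KR 1 to KR 3 and 8.28, 8.08 and 8.38 on KR 4 to KR 6. Adgre1 was highest on KR 3, at 5.30. The order also held for Epcam, 1 of 9 basal keratinocyte markers, and for Amy1, 1 of 7 salivary markers. In the lists described below it held for the regulators Prdm1, Stat3 and Ehf, 3 of 25. It held there too for Tgm1, Pglyrp4 and Anxa1, 3 of 22 cross-linking genes. No gene of the filaggrin, lipid, keratin, muscle, hair, sebaceous or fibroblast lists had it. What the genes with this order share with the Sprr2 values was not tested.

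**Figure D3:**
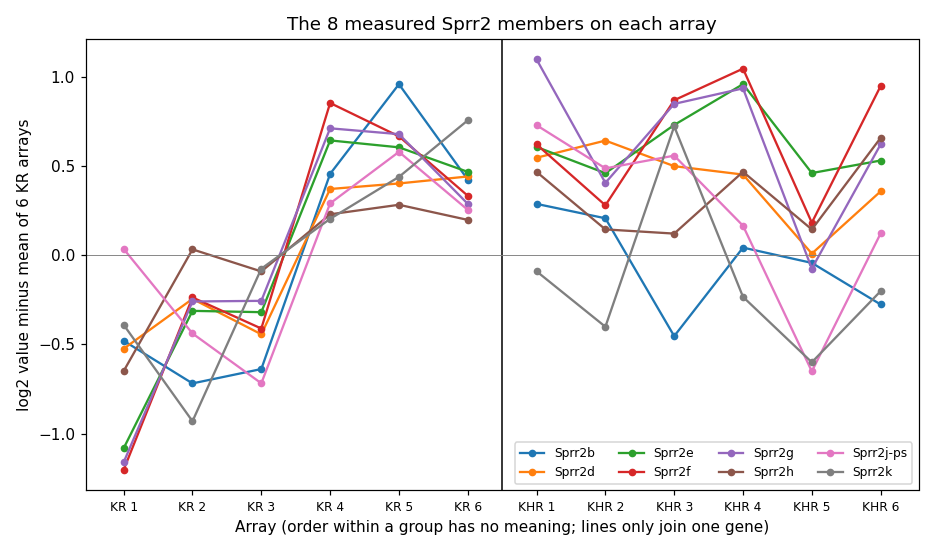
Value of each of the 8 measured Sprr2 members on every array (x axis) as the log2 difference from its own mean over the KR arrays (y axis). KR 1, KR 2 and KR 3 lie below KR 4, KR 5 and KR 6 for all 8 genes, and the KHR arrays lie mostly at or above 0.

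The late cornified envelope genes, small cysteine-rich proteins made in the last living layers, gave 0 calls among 18 (limma). Of these, 3 had an unadjusted p under 0.05, 1 higher and 2 lower, beside 9.64% and 6.21% of all genes. The exact rank test called 0 of all genes, so it adds nothing on the Lce genes. The median Lce difference was -0.09, with 7 genes higher and 11 lower. No difference exceeded 0.43 in size, and the 18 intervals together reached from -0.74 to 0.62. Since 11 of the 18 values are medians of 2 probesets, which can differ in response, these intervals do not bound a change seen by 1 probeset. Of 35 Lce probesets, 3 had an interval that reached a 2-fold change: 1 of Lce1a2 (-1.03 to -0.21), 1 of Lce1l (-1.10 to -0.14) and 1 of Lce1a1 (-0.02 to 1.06). The 11 Lce1 genes had a median of -0.05 and the 6 Lce3 genes, which in human skin are linked to injury and psoriasis, a median of -0.13; Lce6a, the remaining gene, differed by 0.18 ± 0.17 (SE).

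Lce1a2, Lce3f and Lce1a1 had the smallest p-values of the family. Lce1a2 read 8.82, 9.21, 9.41, 9.21, 8.93 and 9.10 on arrays KR 1 to KR 6 and 9.07, 8.61, 8.47, 8.22, 8.93 and 8.78 on arrays KHR 1 to KHR 6 (log2 intensity). The KHR values were on the whole lower, with KHR 1 and KHR 5 inside the KR range, and the difference was -0.43 ± 0.15 (SE; adjusted p = 0.134 in limma). Lce3f read 12.56, 12.45, 12.33, 12.54, 12.41 and 12.27 on arrays KR 1 to KR 6 and 12.59, 11.94, 12.08, 11.66, 11.89 and 12.14 on arrays KHR 1 to KHR 6 (log2 intensity). Here KHR 1 was the highest of all 12 arrays while the other KHR arrays lay below all KR arrays; the difference was -0.38 ± 0.13 (adjusted p = 0.153), and without KHR 1 it was -0.49 (adjusted p = 0.0178), from 1 probeset. Lce1a1 read 8.59, 8.61, 9.03, 9.01, 8.70 and 8.86 on arrays KR 1 to KR 6 and 8.99, 8.68, 9.18, 9.03, 9.24 and 9.57 on arrays KHR 1 to KHR 6 (log2 intensity). The groups overlapped widely, with a difference of 0.32 ± 0.14 (adjusted p = 0.276). The Lce1a1 value lies midway between a bright and a dim probeset, with KR means of 13.01 and 4.59. The bright one was higher in KHR tumours by 0.12 and the dim one by 0.52. Lce1i also combined a bright and a dim probeset, at 12.61 and 4.55, so such values may mix in background signal.

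The Lce genes varied more among KHR than among KR tumours. The SD was larger in KHR tumours for all but 1 of the 18, Lce1k (medians 0.32 in KHR and 0.20 in KR tumours), while over all genes 47.6% had the larger SD in KR tumours. KHR 1 was the highest of all 12 arrays for 7 of the 18 and KHR 4 the lowest for 6. The median Lce deviation from the KR mean was 0.20 on KHR 1 and -0.35 on KHR 4 (log2). The larger SD in KHR tumours was not particular to Lce genes. It was seen for all but 1 of the 7 S100-fused genes, with medians of 0.53 in KHR and 0.40 in KR tumours. The 18 Lce values on an array come from 1 RNA sample and from related genes, so they are not independent of one another. The difference in spread was not tested.

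**Figure D4:**
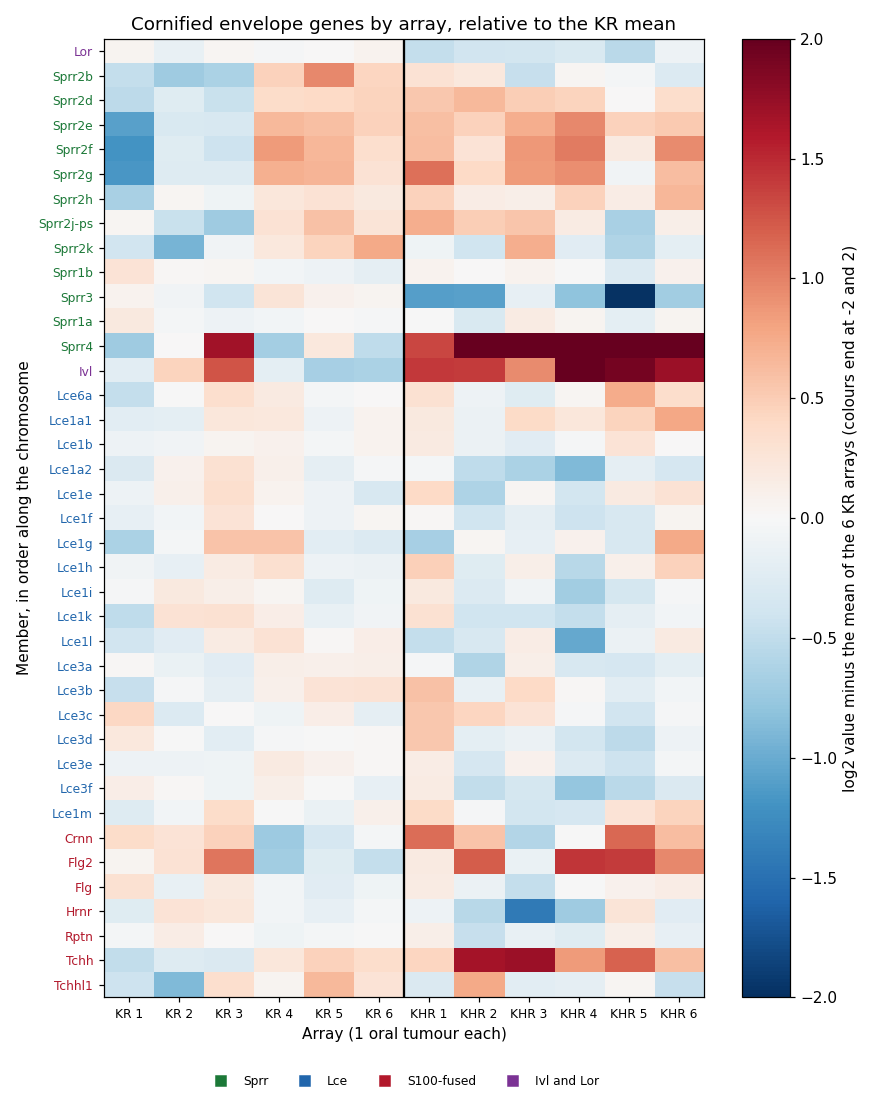
Heat map of the 39 members (rows, in chromosomal order, names coloured by family) on the 12 arrays (columns), as log2 value minus the member's mean over the KR arrays. The rows of Sprr4 and Ivl are red across KHR, Sprr3 is blue, most Sprr2 rows are blue on KR 1 to KR 3 and red on KR 4 to KR 6, and the Lce rows are mostly pale.

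Among the S100-fused genes only Tchh passed. Trichohyalin, its product, stiffens the inner root sheath of hair and the filiform papillae of the tongue. Tchh read 6.45, 6.68, 6.66, 7.18, 7.41 and 7.30 on arrays KR 1 to KR 6 and 7.38, 8.61, 8.65, 7.81, 8.12 and 7.55 on arrays KHR 1 to KHR 6 (log2 intensity). KHR 2 and KHR 3 were highest, and the groups touched at KHR 1 and KR 5. The means were 6.95 ± 0.40 and 8.02 ± 0.53 (SD, n = 6 each), a rise of 1.07 ± 0.24 (SE; adjusted p = 0.0237 in limma), or 2.10-fold. All 3 probesets were higher, by 1.00 to 1.55, and 1 passed by itself. Omitting KR 1, KR 2, KR 3 or KHR 3 ended the call (adjusted p = 0.0615 at most). Of 14 measured hair and filiform papilla markers none passed (limma), and their mean ranged from 4.55 to 5.76 in KR and from 5.04 to 6.03 in KHR tumours, highest in KHR 2. Most of them were dim, such as Krt28 at 4.24 in KR and 4.10 in KHR tumours, beside array medians of 5.62 to 5.75. Krt71 and Krt34 were brighter, with KR means of 7.59 and 7.08. A lack of calls among dim markers says little, and the part of these markers in the Tchh difference was not tested.

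Flg2, a filaggrin-like protein of the cornified layer, did not pass. Flg2 read 5.06, 5.30, 6.09, 4.33, 4.77 and 4.54 on arrays KR 1 to KR 6 and 5.19, 6.23, 4.89, 6.45, 6.42 and 5.98 on arrays KHR 1 to KHR 6 (log2 intensity). KR 3 was high among the KR arrays and KHR 1 and KHR 3 were low among the KHR arrays, and the difference was 0.84 ± 0.32 (SE; adjusted p = 0.202 in limma). Its 5 probesets were all higher in KHR tumours, by 0.27 to 1.22. Hrnr, hornerin, is another filaggrin-like protein. Hrnr read 12.61, 13.12, 13.07, 12.80, 12.68 and 12.81 on arrays KR 1 to KR 6 and 12.75, 12.30, 11.43, 12.13, 13.11 and 12.62 on arrays KHR 1 to KHR 6 (log2 intensity). KHR 3 was the lowest, and KHR 1, KHR 5 and KHR 6 lay within the KR range. The difference was -0.46 ± 0.22 (adjusted p = 0.346).

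The other S100-fused genes differed by less than their errors allowed to call. Flg, filaggrin itself, differed by -0.03 ± 0.13, Rptn, repetin, by -0.13 ± 0.10, Crnn, cornulin of oral and oesophageal epithelium, by 0.48 ± 0.29, and Tchhl1 by -0.06 ± 0.25 (SE; adjusted p from 0.480 to 0.955 in limma). The family median was -0.03, and it became 0.04 where probesets were averaged and 0.15 by median polish, so its sign depends on the summary. Tchh and Tchhl1 lie next to each other among the members and gave 1.07 and -0.06. That contrast between them was not tested.

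The probesets of a member did not always point the same way. Of 33 members with more than 1 probeset, 21 had all of them in the direction of the gene. The split members were Lce1b, Lce1e, Lce1f, Lce1h, Lce1l and Lce1m, and outside the Lce family Sprr1a, Sprr1b, Sprr2b, Flg, Hrnr and Tchhl1. A gene's value is the median of its probesets, so part of this agreement is built in. The share over all genes was not counted. Of the 98 member probesets, 4 passed over all probesets: 2 of Ivl, 1 of Tchh and the 1 of Sprr4. In Lor, Sprr3 and Sprr2f the probesets agreed in direction and differed in size, from 0.64 to 1.53 in Sprr2f. The smallest difference of Lor and of Sprr3 was on the brightest probeset, with KR means of 13.67 and 13.02. In Sprr2f the largest was on the dimmest, at 5.79, while in Ivl the smallest was on the dimmest, at 7.10. Whether differences are compressed at the top of the scale was not tested.

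**Figure D5:**
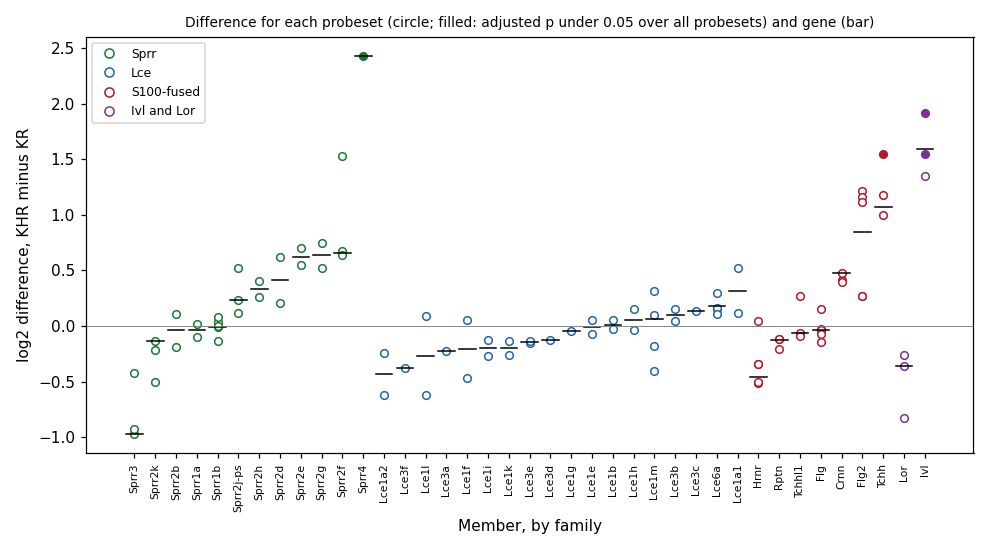
Log2 difference, KHR minus KR, for each of the 98 member probesets (circles, filled where adjusted p is under 0.05 over all probesets) and for the gene (bar). Filled circles belong to Sprr4, Tchh and Ivl; the circles of Lce1l and of Lce1m lie on both sides of 0.

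Partners of the envelope, chosen like the members with earlier results of these data known, included calls in both directions. Over all genes 3.74% were called, 2.71% higher and 1.03% lower, and each list's count is to be read beside those shares. Of 22 measured genes of cross-linking and envelope precursors, 2 rose and 3 fell (limma; 22.7% called), with a median of 0.00 beside 0.00450 over all genes. The cross-linking enzymes Tgm1 and Tgm3 changed by -0.46 ± 0.10 and -0.46 ± 0.11 (SE; adjusted p = 0.0244 and 0.0265) and the scaffold gene Ppl by -0.42 ± 0.09. Prr9, a proline-rich gene of the same complex, rose by 1.21 ± 0.26 (adjusted p = 0.0216). Pglyrp3, a peptidoglycan recognition gene of the complex, is the fifth of these calls, higher by 0.42 ± 0.11 (adjusted p = 0.0448). On leaving out single arrays, Tgm1 lost its call without KR 5, without KR 6 and without KHR 4 (0.0572 at most), Tgm3 without KR 2, KR 4, KR 6, KHR 5 or KHR 6 (up to 0.0656), Ppl without KHR 4 (0.0529), Prr9 without KR 2 or KHR 4 (up to 0.0545) and Pglyrp3 without any of 9 arrays (up to 0.101).

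Of 15 genes that process filaggrin, 1 rose and 1 fell (13.3% called): the protease gene Klk7 by 1.09 ± 0.15 and the proprotein convertase gene Pcsk6 by -0.66 ± 0.14 (SE; adjusted p = 0.00125 and 0.0200 in limma). Pcsk6 lost its call without KHR 4 (adjusted p = 0.0507). Of 16 genes of the lipid envelope 12.5% were called, 1 in each direction: the lipase gene Lipn rose by 1.25 ± 0.24 and the lipoxygenase gene Aloxe3 changed by -0.75 ± 0.18 (adjusted p = 0.00908 and 0.0385), the latter lost on leaving out any of 9 arrays (up to 0.0910). The median difference was 0.02 over the filaggrin list and 0.00 over the lipid list.

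Of 25 measured regulators of the complex, 1 rose and none fell, which is 4% and near the 3.74% of all genes, with a median of 0.03. It was Prdm1, a transcriptional repressor acting late in keratinocyte differentiation, at 0.64 ± 0.14 (SE; adjusted p = 0.0256 in limma), a call lost without KR 2, KR 3, KHR 4 or KHR 6 (up to 0.0643). Klf4, which drives barrier formation, differed by -0.28 ± 0.10 (adjusted p = 0.188). Of 15 suprabasal and stress keratins none rose and 2 fell (13.3% called), with a median of -0.18 and 13 of the 15 lower. Krt13, of the oral suprabasal layers, changed by -1.26 ± 0.22 and Krt24 by -1.36 ± 0.27 (adjusted p = 0.00571 and 0.0121), and both held on leaving out any array.

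Markers of other cell types were read in the same fit. None of 12 skeletal muscle, 7 salivary gland, 6 sebaceous gland or 6 immune markers passed (limma). The muscle mean was 6.25 ± 0.50 in KR and 6.80 ± 0.88 in KHR tumours, with a median difference of 0.67 and 11 of the 12 markers higher. The sebaceous mean was 6.50 ± 0.40 in KR and 7.09 ± 0.17 in KHR tumours, with 5 of the 6 markers higher. Of the 7 salivary gland markers 1 was higher and 6 were lower. The immune mean, which includes S100a8 and S100a9, was 7.42 ± 0.43 and 7.93 ± 0.18 (SD, n = 6 each), with 5 of the 6 markers higher. Of 6 fibroblast markers Col1a2 fell, at -0.80 ± 0.18 (SE; adjusted p = 0.0220; up to 0.0578 without KHR 4 or KHR 6). Beyond the covariate fits, the part of these cell types in the members' differences was not tested. Among the basal keratinocyte markers Epcam had the largest difference, at 0.88, and how far their mean rests on Epcam was not tested. With the basal keratinocyte mean as a covariate none of the 5 members passed. The differences were smaller for Sprr4, Ivl and Tchh and larger for Sprr3 and Lor, at 1.97 for Sprr4, 1.58 for Ivl, 0.99 for Tchh, -1.18 for Sprr3 and -0.43 for Lor (adjusted p = 0.0536, 0.0765, 0.171, 0.0634 and 0.0767). With the muscle mean Sprr4 and Ivl still passed, while Tchh was 0.90, Sprr3 -0.83 and Lor -0.33 (adjusted p = 0.0681, 0.0963 and 0.0986). With the Xist level Sprr4 and Ivl again passed, while Tchh was 1.02, Sprr3 -1.02 and Lor -0.38 (adjusted p = 0.0606, 0.0520 and 0.0547). These lost calls do not show that the covariate accounts for a difference.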

How the data were processed

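The deposited values were log2 intensities, 1 per probeset and array, for 269751 probesets on 12 arrays; the log base was read from their range. The submitters' processing notes name Partek, with no version. For background correction, normalization and build: not given in the sources used here. Probesets were named by GEO's platform table, with symbols updated through RefSeq synonyms (GRCm38.p6): 233753 had 1 symbol, 5106 several and 30892 none. Lce3d and Lce3e came in under older symbols. A gene's value was the median of its probesets with 1 symbol, without further scaling or filter.

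All 23102 genes were fitted together in limma 3.58.1 (R 4.3.3; lmFit and eBayes, KHR minus KR, two-sided, no covariate), with Benjamini-Hochberg adjustment over all genes and a threshold of 0.05. Intervals are 95%. The fit was tested on simulated data. Members past the threshold, and in each family the 3 with the smallest p and the 2 with the largest difference, are given in full; of each partner list, up to 4 members past the threshold by smallest p. Pglyrp3, Klf4, the remaining S100-fused genes, Sprr1 genes and Sprr2f are named besides. The members and lists were chosen with earlier results of these data known. Alternatives covered the summary of probesets, scaling, filters, variance model, covariates, thresholds, an exact rank test and leaving out each array. Number of arrays, 6 against 6, limits the precision; no detection call was available in the values. Promoter windows are RefSeq's. Tables were made with pandas 2.3.3 and numpy 2.4.6 under Python 3.11.15, plots with matplotlib 3.10.9.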

Additional observations from a re-analysis of the deposited data

Results flagged for a closer look

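Among 78 groups of 6 values (39 members in KR and in KHR tumours), 2 held an array set apart from the rest by Dixon's ratio of gap to range; chance gives about 1 in 20 groups. Sprr1b was lowest on KHR 5, at 12.54 against 12.81 or more on the other KHR arrays (ratio 0.738). Sprr1a was highest on KR 1, at 13.59 against 13.39 or less on the other KR arrays (ratio 0.631). Neither gene passed the test between the groups.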

How the results depend on the processing

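No difference of the 11 members described in full changed sign under any alternative. Sprr4 and Ivl kept their calls under each summary, scaling and variance model in which they were tested, and on leaving out any array. Over all genes, 863 were called; 1445 with the mean over probesets, 251 with the basal keratinocyte mean as a covariate, 555 with the Xist level as a covariate, 312 at an adjusted p under 0.01, 180 at 2-fold or more and 0 by the exact rank permutation test (3051 at an unadjusted p under 0.05; it can give no p below 0.00216), with 523 to 1085 on leaving out 1 array, lowest without KHR 4 (523) and KR 2 (531). Of the members, 5 were called; 3 with the replicate block, 2 with the muscle covariate, 0 with the basal covariate, 2 with Xist, 2 at 0.01, 3 at 2-fold, 0 by the rank test and 3 in the test per probeset, with 2 to 5 on leaving out 1 array. Of the Sprr genes, 2 were called, 1 without genes of fewer than 3 probesets (which drops Sprr4), 1 with the replicate block, the muscle covariate, Xist, at 0.01, at 2-fold or per probeset, 0 with the basal covariate or the rank test, and 1 to 2 on leaving out 1 array. Of Ivl and Lor, 2 were called, 1 with array weights, the replicate block, the muscle covariate, Xist, at 0.01, at 2-fold or per probeset, 0 with the basal covariate or the rank test, and 1 to 2 on leaving out 1 array. Of the S100-fused genes, 1 was called, 0 with the muscle, basal or Xist covariate, at 0.01 or by the rank test, and 0 to 1 on leaving out 1 array. Of the Lce genes 0 were called (limma; 3 at an unadjusted p under 0.05, 0 by the rank test), and 0 to 1 on leaving out 1 array, the 1 being Lce3f without KHR 1. Apart from what the alternatives' own construction shows, the cause was not tested. The labels share replicate numbers between groups, but do not say that a number pairs tumours: deviations of equal numbers correlated by -0.003 to 0.23, 2 of 6 pairs above 0.1, and 2 of 6 KR arrays correlated best with their own number. With that block 925 genes were called, and of the members Sprr4, Ivl and Tchh.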

Other observations

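Probesets that the platform table gives to several copies of one family were read by themselves, as a unit chosen after seeing the data. The 9 shared by Sprr2 copies alone held 7 distinct measurements, since 2 pairs carried the same values on all 12 arrays. These differed by -0.36 to 0.38 (KHR minus KR, log2), 4 higher and 3 lower. None passed over all probesets in limma (lowest adjusted p = 0.616; 0 with an unadjusted p under 0.05). The 3 shared by Lce1 copies differed by -0.26 to -0.02 and the 1 shared by Lce3 copies by 0.05, again with none past the threshold.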
